A study of Homo sapiens with 38 samples.

Results

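The genes described here are the CXC chemokines whose proteins bind the receptor CXCR2, namely CXCL1, CXCL2, CXCL3, CXCL5, CXCL6, CXCL8 and PPBP. They were taken as every probe set annotated to one of these 7 symbols, which gave 12 of the 54613 probe sets of the array and 7 of the 19775 genes with a probe set of their own. Expression was measured on Affymetrix arrays in IMR90 cells, a line of normal human lung fibroblasts of limited lifespan. The constructs were hairpins named shRB, shp107 and shp130, each directed at 1 of the 3 pocket proteins that hold back cell cycle genes, and MLP, the vector alone. They were senescent after expression of ras, grown to confluence, kept in 0.1% serum (low serum), or growing in 10% serum. Experiment 1 held 32 arrays, 2 for each of the 16 pairings of state and construct, and experiment 2 held 6 arrays, 2 each of senescent shRB, senescent vector and growing vector cells. The labels name ras without its form or delivery, do not state the hairpin sequences, and do not say that the 2 arrays of a group came from separate cultures. The p-values therefore measure only the spread between arrays, which may be technical.

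Chemokines of this family carry a glutamate-leucine-arginine motif ahead of their first cysteines and draw neutrophils, which display CXCR2, to sites of injury and infection. Many are switched on quickly in fibroblasts by interleukin 1 and other signals that act through the transcription factor NF-kB. They are known members of the senescence-associated secretory phenotype, the set of secreted proteins that senescent fibroblasts release, and CXCR2 itself has been linked to the keeping of that state. CXCL8, also called interleukin 8, additionally binds CXCR1, whereas PPBP, the precursor of platelet chemokines, is known chiefly from megakaryocytes and platelets.

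The 7 genes lie together on chromosome 4 between bases 73740569 and 74099195 of GRCh38.p14, a stretch of 358.6 kb. Their order is CXCL8, CXCL6, CXCL1, PPBP, CXCL5, CXCL3 and CXCL2, with the first 3 on the plus strand and the other 4 on the minus strand. The platelet factor genes PF4V1 and PF4 are the other protein-coding genes among them. The 140 bases before each annotated start were taken from RefSeq on GRCh38.p14, and their part in the members' changes was not tested. They are written in the direction of transcription, with the CXCL8 window at chr4:73740429-73740568 (plus strand), CXCL1 at chr4:73869253-73869392 (plus), CXCL3 at chr4:74038690-74038829 (minus), CXCL2 at chr4:74099196-74099335 (minus), CXCL6 at chr4:73836538-73836677 (plus), CXCL5 at chr4:73998678-73998817 (minus) and PPBP at chr4:73988191-73988330 (minus). Capitals mark matches to the NF-kB motif or its core GGAATTTCC, to the AP-1 motif TGANTCA, and to the TATA-like strings TATAAA or CATAAAA.
CXCL8: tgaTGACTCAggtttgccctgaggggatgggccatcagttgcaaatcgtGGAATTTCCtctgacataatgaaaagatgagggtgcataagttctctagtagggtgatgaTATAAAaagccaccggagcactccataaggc
CXCL1: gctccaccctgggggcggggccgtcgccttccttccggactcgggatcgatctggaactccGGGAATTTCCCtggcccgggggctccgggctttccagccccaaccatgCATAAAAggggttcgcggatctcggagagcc
CXCL2: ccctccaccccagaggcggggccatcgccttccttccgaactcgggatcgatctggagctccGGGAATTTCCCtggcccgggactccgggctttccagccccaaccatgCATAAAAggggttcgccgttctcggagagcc
CXCL3: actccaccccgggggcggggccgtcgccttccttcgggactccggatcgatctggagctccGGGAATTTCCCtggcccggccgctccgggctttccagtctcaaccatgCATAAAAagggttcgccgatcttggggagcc
CXCL5: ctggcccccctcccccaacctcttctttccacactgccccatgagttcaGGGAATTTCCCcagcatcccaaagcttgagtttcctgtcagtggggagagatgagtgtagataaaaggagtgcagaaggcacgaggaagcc
CXCL6: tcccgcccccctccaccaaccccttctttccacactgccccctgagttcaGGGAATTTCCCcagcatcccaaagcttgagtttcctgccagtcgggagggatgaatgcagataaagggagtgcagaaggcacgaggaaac
PPBP: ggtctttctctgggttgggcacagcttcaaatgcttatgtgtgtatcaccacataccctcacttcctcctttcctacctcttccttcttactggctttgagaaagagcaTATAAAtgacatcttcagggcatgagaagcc

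Motifs were searched on both strands of the 250 bases before the start, and matches are descriptions of the letters, not shown binding sites. The string GGGAATTTCC was picked as the NF-kB match most common among the members and then searched by itself. It stood in CXCL1, CXCL2, CXCL3, CXCL5 and CXCL6, and in 0.142% of 35116 promoters. Its presence in the members was thus set in advance, and the share of promoters is no test of it. The NF-kB motif in its usual degenerate form was found in the same 5 members and in 5.206% of promoters, and overlaps that string. The shorter core GGAATTTCC was found in these 5 and in CXCL8, against 0.413% of promoters, and PPBP held none of the 3. Among the members TGANTCA was found in CXCL8 alone, against 6.573% of promoters. CATAAAA stood in CXCL1, CXCL2 and CXCL3 (3.4% of promoters), and TATAAA in CXCL8 and PPBP (10.716%). TTGCNNAA, a C/EBP-type string, stood in CXCL2 and PPBP (9.05%). The E2F-type strings TTTGGCGC and TTTCCCGC were in none of the 7 windows, against 0.55% and 1.39% of promoters. Over the 250 bases, CXCL5 and CXCL6 were 85.3% identical, CXCL1 and CXCL3 81.4%, and CXCL2 and CXCL3 73.3%. PPBP was 42.8% to 48.1% identical to the other members it was aligned with.

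One probe set stood for each gene, the brightest over all arrays. All 7 members passed the filter for testing, a log2 value above 5 on at least 2 arrays of experiment 1, as did 8511 genes in all. CXCL2, CXCL3 and CXCL5 were above 5 in experiment 1 on confluent and senescent arrays alone, and CXCL6 on those and 1 growing array, so a difference between those states and the rest was built into their passing. PPBP passed through both senescent shRB arrays and 1 senescent shp107 array, so for it the difference between senescent shRB cells and the rest was built in. Experiment 2 was not used by the filter. CXCL8 was above 5 on all 38 arrays, CXCL1 on 25, CXCL6 on 19, CXCL3 on 18, CXCL2 on 17, CXCL5 on 16 and PPBP on 7. Values under 5 lie near array background, which limits any change measured against them. The probe sets used for CXCL2, CXCL5 and CXCL8 carry a suffix for probes that can bind related transcripts, and CXCL1, CXCL2 and CXCL3 are close relatives, so part of a value may come from another member. Probe sequences were not used here.

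The arrays had medians from 3.27 to 3.41, and replicates correlated with r from 0.980 to 0.997 over all probe sets. The targeted gene RB1 changed by -5.10 with shRB at confluence and by -5.32 in senescent cells of experiment 1 (log2 change). RBL2, which encodes p130, changed by -2.88 to -2.35 with shp130. RBL1, which encodes p107, was not called lower with shp107 (log2 change -1.30 to -0.13), so its loss on the shp107 arrays is not shown here. HRAS was 0.16 higher in senescent vector cells of experiment 1 and was not called, against 1.04 higher and called in experiment 2, and the labels do not say which ras gene was used. The 9 fibroblast markers averaged 9.26 to 11.6 on every array. In senescent vector cells of experiment 1, 6 of the 9 were lower than in growing cells and at confluence 3 were lower and 1 higher, and the part of this in the members' changes was not tested. None of the epithelial, endothelial, leukocyte and platelet markers passed the filter, and their highest values were 3.87, 4.50, 3.60 and 4.37.

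The least alike pair of replicates was that of confluent vector cells, where the SD over genes of replicate 1 minus replicate 2 was 0.794. Replicate 1 was the higher for each of the 7 members, by a median of 1.25 and by 3.94 for CXCL2, and IL1A, an inducer of these chemokines, was 6.03 higher on it. In growing vector cells replicate 1 was above replicate 2 by 3.76 for CXCL1 and by 2.59 for CXCL8, beside 3.26 for IL1B and 3.20 for IL6. Growing shp107 cells differed the other way, with CXCL8 lower by 2.90 and CXCL1 lower by 1.58 on replicate 1. The part of these inflammatory genes in the differences between replicates was not tested.

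**Figure D1:**
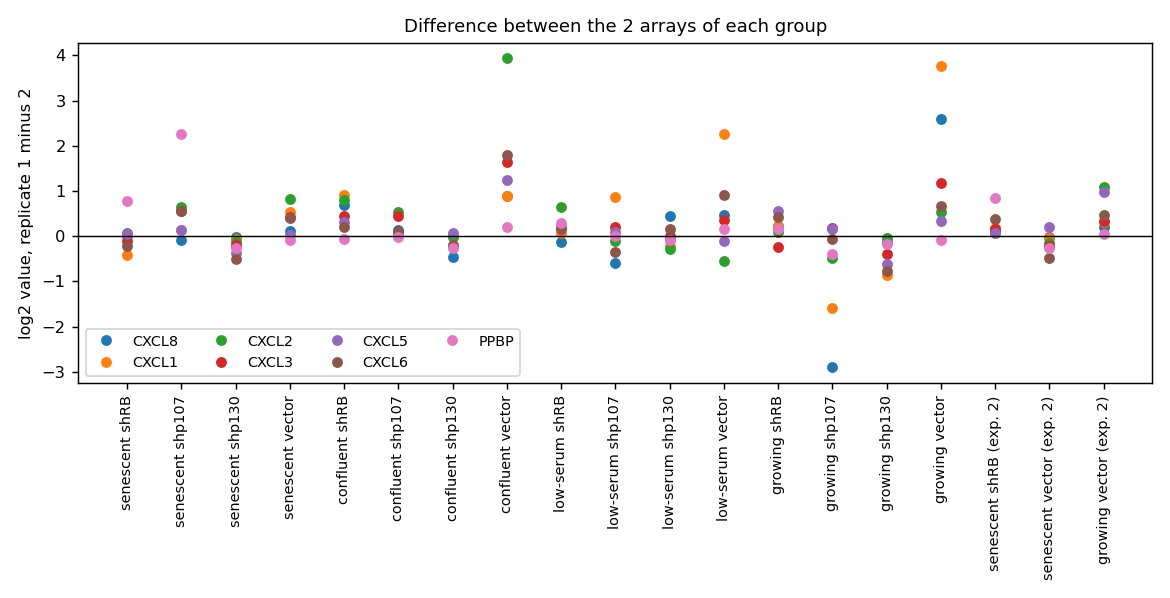
The log2 value of replicate 1 minus that of replicate 2 is plotted for each of the 7 members (colours) in each of the 19 groups along the horizontal axis. Confluent vector cells have all 7 points above 0, with CXCL2 at 3.94, and growing vector cells have CXCL1 at 3.76 and CXCL8 at 2.59, whereas points of the senescent groups other than PPBP in shp107 cells lie within 1 of 0.

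Vector cells in each arrested state were first compared with growing vector cells, to ask which members change when fibroblasts senesce, crowd or lose serum. In experiment 1 all 7 members were higher in senescent cells, by 1.78 to 8.48 on the log2 scale, where 9.21% of all genes tested were called higher. At confluence 6 of 7 were higher, all but PPBP, against 10.5% of genes. In low serum CXCL8 alone was called, and it was lower, against 6.36% of genes. These 3 comparisons share the growing vector arrays. CXCL2, CXCL3 and CXCL5 had passed the filter through senescent and confluent arrays alone, CXCL6 nearly so, and PPBP through senescent arrays with hairpins. The filter thus favoured rises of these members, and the counts are not independent of it when set against the shares of all genes. The median change of the members was 5.20 in senescent cells, 6.40 at confluence and -0.79 in low serum, while that of all genes tested was -0.10, -0.05 and 0.03. Fewer expressing cells and less RNA per cell cannot be told apart in such bulk samples.

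CXCL8 was the member already abundant in growing cells. It read log2 12.82 and 12.71 in senescent vector cells, 13.20 and 12.31 at confluence and 7.67 and 7.20 in low serum, against 11.51 and 8.92 in growing vector cells. The senescent and confluent arrays were all above the growing ones and the low-serum arrays all below them. Its change was 2.55 ± 0.66 in senescent cells (log2 change ± SE, limma adjusted p = 0.00652), 2.54 ± 0.66 at confluence (adjusted p = 0.00729) and -2.78 ± 0.66 in low serum (adjusted p = 0.00803). Each of the 3 calls was lost without 1 of the growing arrays. Without growing vector replicate 2 the senescent change was 1.26 (adjusted p = 0.231) and the confluent change 1.25 (adjusted p = 0.257), without replicate 1 they were 3.84 and 3.83, and the low-serum change without replicate 1 was -1.49 (adjusted p = 0.182). The confluent call was also lost without confluent vector replicate 1 (2.09, adjusted p = 0.0699) and the low-serum call without low-serum vector replicate 2 (-2.55, adjusted p = 0.0544). A second CXCL8 probe set, which ran from 4.22 to 13.88, gave larger changes of 4.86 in senescent cells, 4.47 at confluence and -3.32 in low serum. Its 13.88 was the highest value of any probe set on any array, so the brightest CXCL8 values lay at the top of the measured range.

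CXCL1, first described as a growth-promoting factor of melanoma cells, read 11.99 and 11.46 in senescent vector cells, 12.55 and 11.67 at confluence and 6.25 and 3.99 in low serum, against 8.41 and 4.64 in growing vector cells. Senescent and confluent arrays lay above both growing arrays, while low-serum and growing arrays overlapped. The change was 5.20 ± 0.79 in senescent cells (limma adjusted p = 4.43e-05) and 5.58 ± 0.79 at confluence (adjusted p = 3.02e-05). Without growing vector replicate 2 these were 3.31 and 3.70 and still called, and a low-serum change of -3.29 became called (adjusted p = 0.00508) where the full data gave -1.41 ± 0.79 (adjusted p = 0.257).

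CXCL2 and CXCL3, close relatives of CXCL1, were near background in growing cells and among the brighter transcripts in the senescent ones. CXCL3 read 12.00 and 11.57 in senescent vector cells, 12.94 and 11.30 at confluence and 3.75 and 3.40 in low serum, against 4.57 and 3.40 in growing vector cells. CXCL2 read 11.09 and 10.28 in senescent vector cells, 12.82 and 8.88 at confluence and 3.03 and 3.58 in low serum, against 4.71 and 4.18 in growing vector cells. Both genes kept senescent and confluent arrays far from the rest. CXCL2 was 6.24 ± 0.68 higher in senescent cells (limma adjusted p = 7.52e-07) and 6.40 ± 0.68 higher at confluence (adjusted p = 1.12e-06), and CXCL3 223-fold and 281-fold higher. The other pair of CXCL2 probe sets stayed at background on every array, with highest values of 3.56 and 3.43, so the CXCL2 changes rest on 1 probe set.

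CXCL5 and CXCL6, the pair with the most similar promoter windows, both attract neutrophils, CXCL6 also through CXCR1. CXCL5 read 12.16 and 12.14 in senescent vector cells, 12.14 and 10.90 at confluence and 3.38 and 3.50 in low serum, against 3.84 and 3.50 in growing vector cells. It was 356-fold higher in senescent cells and 230-fold higher at confluence, and its 2 further probe sets rose too, by 7.88 and 2.51 in senescent cells and by 7.08 and 2.43 at confluence. CXCL6 read 9.57 and 9.17 in senescent vector cells, 12.00 and 10.20 at confluence and 4.18 and 3.26 in low serum, against 4.85 and 4.18 in growing vector cells. CXCL6 was higher by 4.86 ± 0.41 in senescent cells (limma adjusted p = 1.89e-08) and by 6.59 ± 0.41 at confluence (adjusted p = 3.44e-10). Of the 2 members called between senescent and confluent vector cells, CXCL6 was the lower in senescent cells, at -1.73 ± 0.41 (adjusted p = 0.00281, 18.8% of genes lower). Without confluent vector replicate 1 that difference was -0.83 and not called (adjusted p = 0.1), and without confluent vector replicate 2 it was -2.63.

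PPBP behaved unlike the others. It read 4.51 and 4.59 in senescent vector cells, 2.80 and 2.61 at confluence and 2.57 and 2.41 in low serum, against 2.72 and 2.81 in growing vector cells. The senescent arrays alone stood above the rest, and even these were under 5. Its change was 1.78 ± 0.41 in senescent cells (limma adjusted p = 0.00251) and -0.06 ± 0.41 at confluence (adjusted p = 0.936). Senescent vector cells were 1.84 ± 0.41 above confluent vector cells (adjusted p = 0.0016), the other member called in that comparison, where 14.6% of genes were higher.

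**Figure D2:**
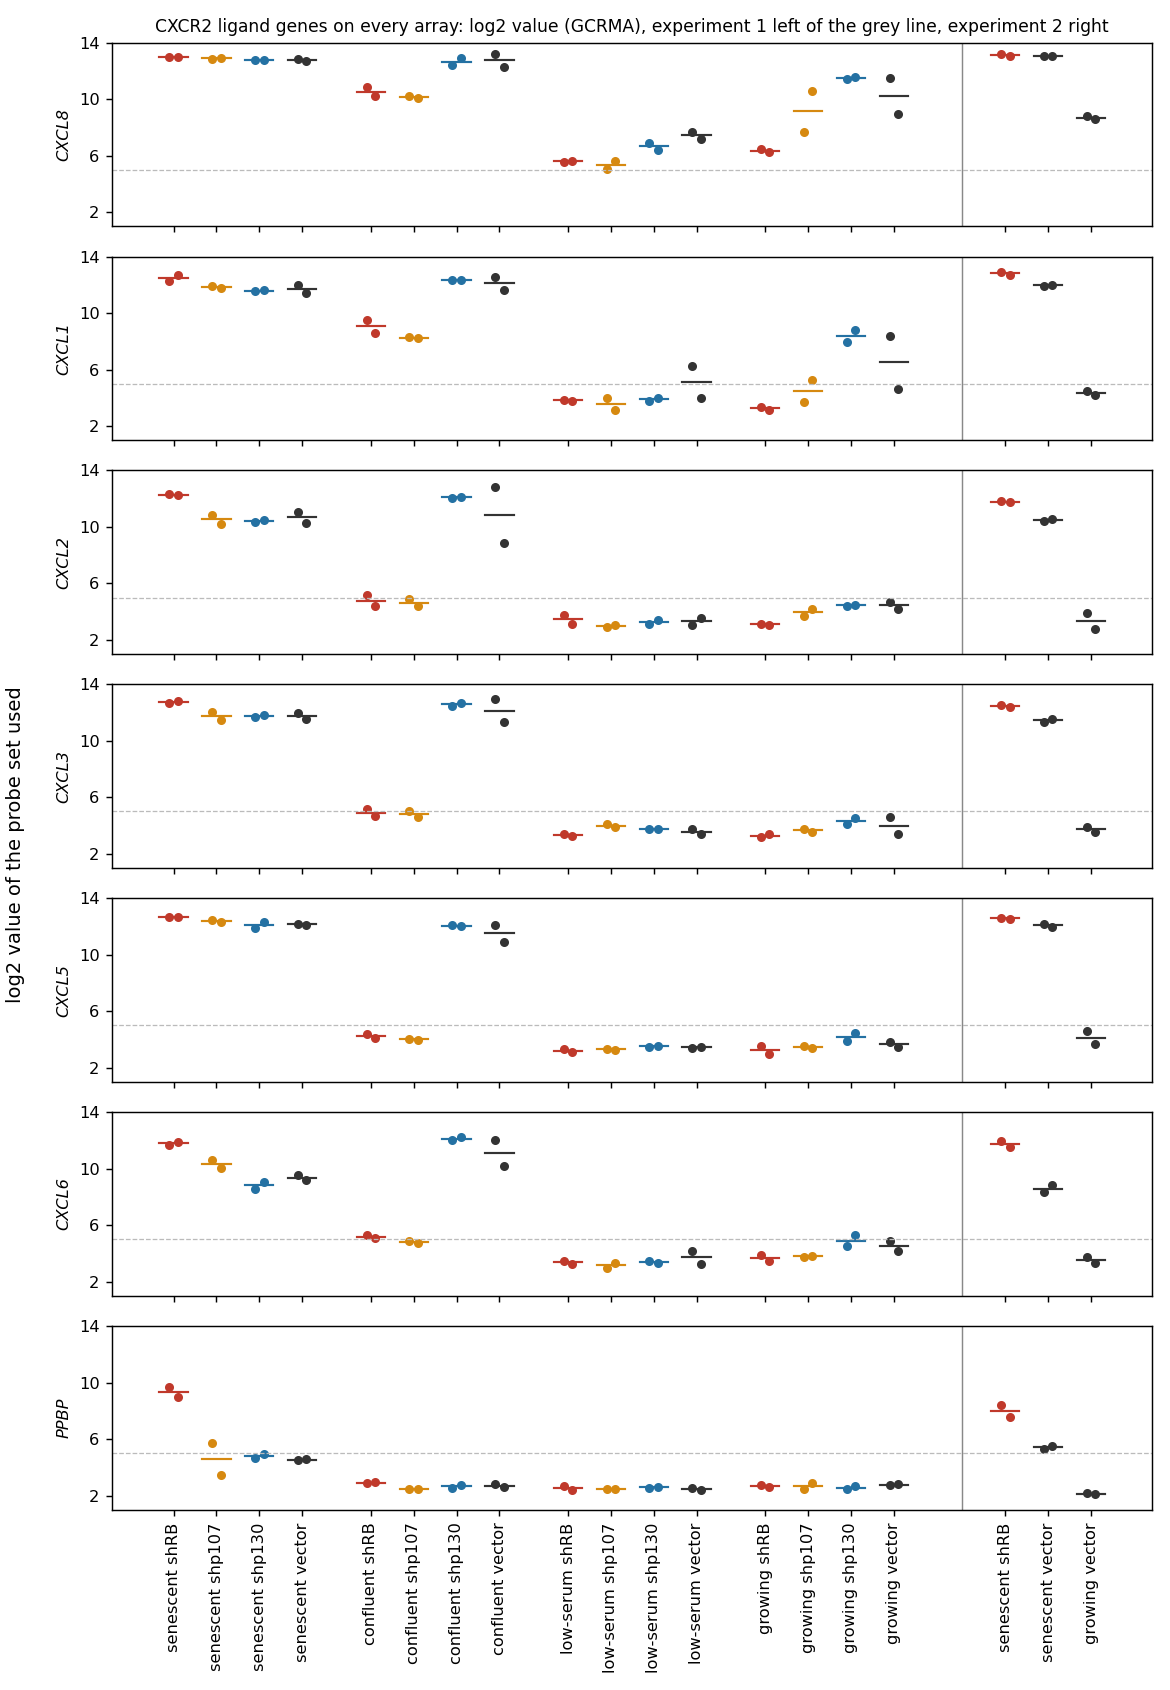
Each panel shows the log2 value of 1 member on every array (points), with the group mean as a bar and the colour for the construct. Groups run along the horizontal axis with experiment 2 right of the grey line, and the dashed line marks a log2 value of 5. CXCL2, CXCL3, CXCL5 and CXCL6 are high in the senescent groups and in confluent vector and shp130 cells, CXCL8 is above 5 throughout, and PPBP is high in senescent shRB cells.

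Experiment 2 repeated the senescent and growing vector cells with their own arrays. All 7 members were higher in senescent cells, against 18.7% of genes, with a median change of 7.19. CXCL8 read 13.05 and 13.06 in senescent vector cells, against 8.77 and 8.56 in growing vector cells, and rose by 4.38 ± 0.17 (limma adjusted p = 7.8e-07). CXCL1 read 11.95 and 11.99 in senescent vector cells, against 4.51 and 4.19 in growing vector cells, a rise of 7.62 ± 0.18 (adjusted p = 1.1e-07). Here the growing arrays of both genes agreed to within 0.32, unlike those of experiment 1.

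CXCL3 and CXCL5 rose 214-fold and 246-fold in senescent cells of experiment 2, CXCL2 146-fold and CXCL6 33.2-fold. PPBP read 5.28 and 5.54 in senescent vector cells, against 2.17 and 2.11 in growing vector cells, and rose by 3.27 ± 0.27 (limma adjusted p = 3.01e-05). The difference of the senescence change between experiments was called for none of the 7 members, where 1.5% of genes were. It ran from -0.53 to 2.42. The 7 calls of experiment 2 stood with any single array left out.

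**Figure D3:**
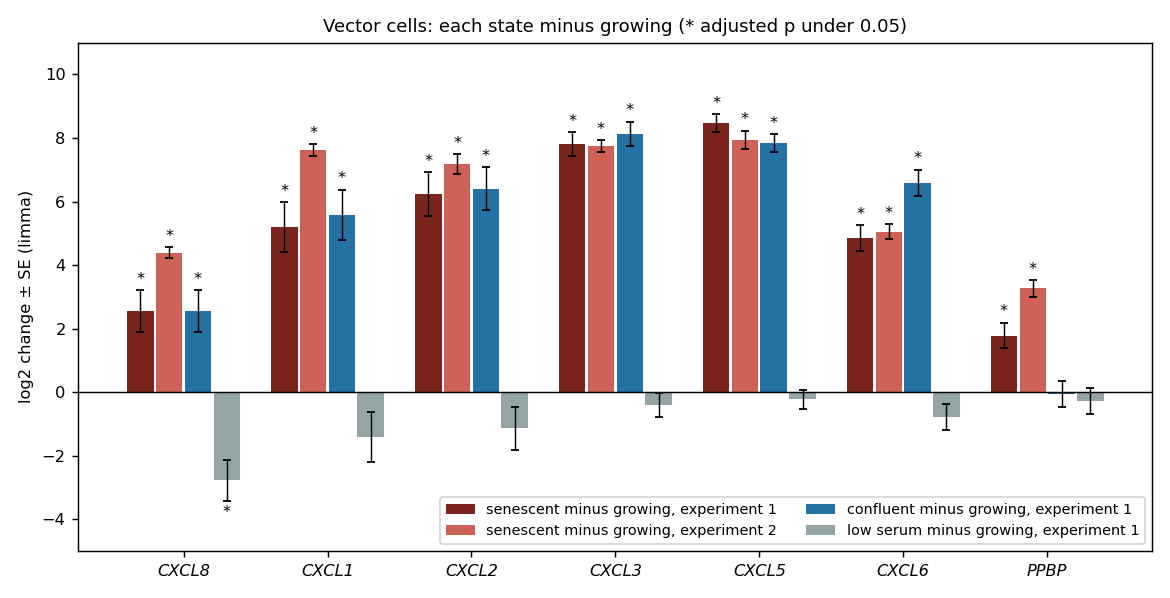
Bars give the log2 change of each member in vector cells, each state minus growing, with the limma SE and an asterisk where the adjusted p is under 0.05. Senescent bars of both experiments and confluent bars reach 7.74 to 8.48 for CXCL3 and CXCL5, and the low-serum bar passes the test for CXCL8 alone.

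The hairpins were then set against vector within a state, to ask whether a pocket protein affects the members. In growing cells CXCL8 alone was called lower with shRB, where 0.106% of genes were lower. Its second probe set changed by -3.60 ± 0.98 and was not called (limma adjusted p = 0.165). On the probe set used, CXCL8 read 6.45 and 6.23 in growing shRB cells, against 11.51 and 8.92 in growing vector cells. That was a change of -3.87 ± 0.66 (limma adjusted p = 0.0151). The groups did not overlap, but CXCL8 no longer passed when growing vector replicate 1 was left out (-2.58, adjusted p = 0.345), nor without growing shRB replicate 1 (-3.98, adjusted p = 0.0925) or growing shRB replicate 2 (-3.76, adjusted p = 0.16). CXCL1 read 3.38 and 3.15 in growing shRB cells, against 8.41 and 4.64 in growing vector cells, and was not called (-3.26 ± 0.79, adjusted p = 0.0846), although it was without growing vector replicate 2 (-5.14, adjusted p = 0.000528).

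With shp107 limma called no member in growing cells (0% of genes called, 117 genes at an unadjusted p under 0.05) or in low serum (0.0352%). With shp130 none was called in growing cells (0.0587%) or in low serum (0.27%). CXCL8 read 7.70 and 10.60 in growing shp107 cells and 11.42 and 11.54 in growing shp130 cells, beside the 11.51 and 8.92 of vector cells. CXCL1 was the member that hung on single arrays here too. Without growing vector replicate 2 it was lower with shp107 (-3.92, adjusted p = 0.031), and without growing vector replicate 1 higher with shp130 (3.71, adjusted p = 0.0316), where the full data gave -2.04 and 1.83, not called.

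In low serum shRB changed none of the members by limma, with 0.0822% of genes called and 704 genes at an unadjusted p under 0.05. CXCL8 read 5.53 and 5.65 in low-serum shRB cells, 5.05 and 5.64 in shp107 cells and 6.87 and 6.43 in shp130 cells, against 7.67 and 7.20 in low-serum vector cells. On this probe set every hairpin array lay below both vector arrays, but the share of all genes with this arrangement was not counted. The shRB change of -1.84 ± 0.66 did not pass (adjusted p = 0.419). The second CXCL8 probe set was near background, at 4.89 or lower on all low-serum arrays. There the shp107 and shp130 arrays overlapped the vector arrays, and the shRB change was -0.38 ± 0.98 (limma adjusted p = 0.97). The other 6 members were at or below 4.18 on all low-serum arrays except 1 vector array of CXCL1 at 6.25.

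Confluent cells split by construct. With shRB 6 of 7 members were lower than in vector cells (10.5% of genes lower), with shp107 the same 6 (6.17%), and with shp130 none was called (0.0235% of genes called). These comparisons share the confluent vector arrays. CXCL2, CXCL3, CXCL5 and CXCL6 had passed the filter mostly through these, the confluent shp130 and the senescent arrays, so the counts are not independent of it. CXCL5 read 4.38 and 4.08 in confluent shRB cells, 4.05 and 3.99 in shp107 cells and 12.10 and 12.04 in shp130 cells, against 12.14 and 10.90 in vector cells. CXCL3 read 5.14 and 4.70 in confluent shRB cells, 5.02 and 4.58 in shp107 cells and 12.50 and 12.71 in shp130 cells, against 12.94 and 11.30 in vector cells. The shRB and shp107 arrays were near the level of growing cells, and the shp130 arrays near that of vector cells. The changes with shRB were -7.29 ± 0.29 for CXCL5 (limma adjusted p = 9.58e-14) and -7.20 ± 0.38 for CXCL3 (adjusted p = 2.2e-11), and with shp107 -7.50 ± 0.29 (adjusted p = 5.38e-14) and -7.32 ± 0.38 (adjusted p = 2e-11).

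CXCL6 read 5.28 and 5.09 in confluent shRB cells, 4.84 and 4.72 in shp107 cells and 12.02 and 12.21 in shp130 cells, against 12.00 and 10.20 in vector cells. CXCL2 read 5.17 and 4.38 in confluent shRB cells, 4.92 and 4.38 in shp107 cells and 12.08 and 12.11 in shp130 cells, against 12.82 and 8.88 in vector cells. No shRB or shp107 array reached any vector array. The change of CXCL6 was -5.92 ± 0.41 with shRB and -6.32 ± 0.41 with shp107, and that of CXCL2 -6.08 ± 0.68 and -6.20 ± 0.68, with limma adjusted p of 2.52e-06 or smaller. Against the lower of the vector arrays alone, without confluent vector replicate 1, shp130 cells were above vector for CXCL2 (3.21, adjusted p = 3.70e-05), CXCL5 (1.17, adjusted p = 0.0162) and CXCL6 (1.91, adjusted p = 0.0053).

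CXCL1 and CXCL8 fell less far at confluence. CXCL1 read 9.54 and 8.62 in confluent shRB cells, 8.29 and 8.22 in shp107 cells and 12.34 and 12.32 in shp130 cells, against 12.55 and 11.67 in vector cells. CXCL8 read 10.88 and 10.20 in confluent shRB cells, 10.21 and 10.07 in shp107 cells and 12.43 and 12.90 in shp130 cells, against 13.20 and 12.31 in vector cells. Both stayed well above background in the low groups. CXCL1 changed by -3.03 ± 0.79 with shRB (limma adjusted p = 0.0106) and by -3.85 ± 0.79 with shp107 (adjusted p = 0.00173), and CXCL8 changed by -2.22 ± 0.66 (adjusted p = 0.0235) and -2.62 ± 0.66 (adjusted p = 0.00917). The shRB calls were lost without confluent vector replicate 1 (adjusted p = 0.104 for CXCL1 and 0.195 for CXCL8) or confluent shRB replicate 2 (0.0918 and 0.146), and that of CXCL8 also without confluent shRB replicate 1 (0.0561). The shp107 call of CXCL8 was lost without confluent vector replicate 1 (adjusted p = 0.104) or confluent shp107 replicate 2 (0.0685). The second CXCL8 probe set fell by 5.06 with shRB at confluence. PPBP did not pass with any hairpin, and was 0.19 ± 0.41 higher with shRB.

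**Figure D4:**
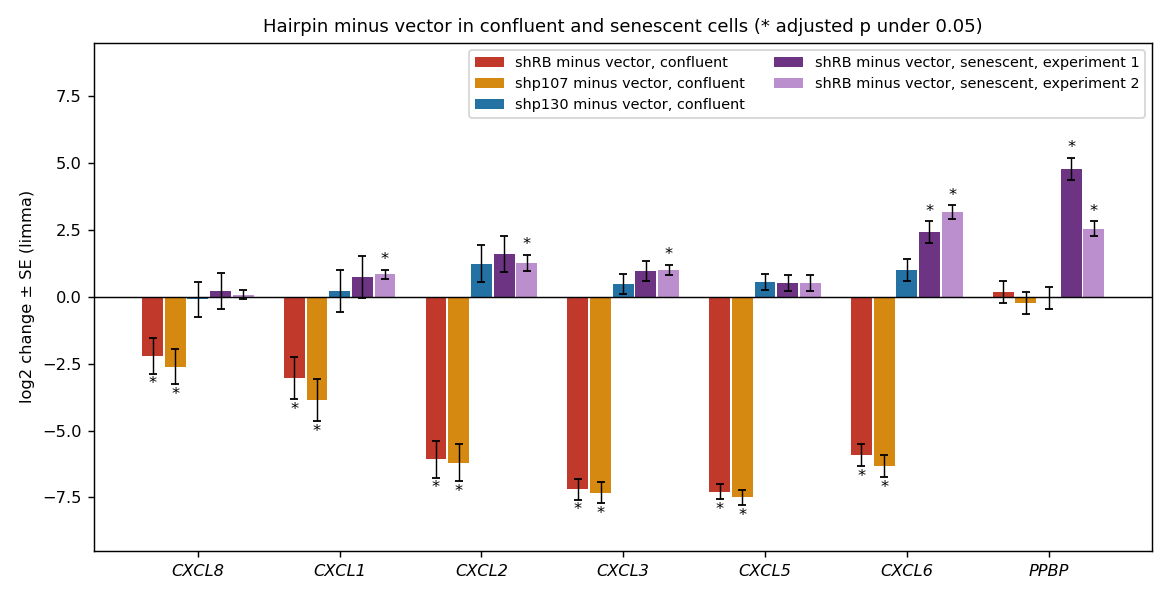
Bars give the log2 change of each member, hairpin minus vector, in confluent cells (shRB, shp107, shp130) and in senescent cells (shRB in experiments 1 and 2), with the limma SE and an asterisk where the adjusted p is under 0.05. The shRB and shp107 bars of CXCL2, CXCL3, CXCL5 and CXCL6 reach -5.92 or lower, and in senescent cells the bars of PPBP, at 4.79 and 2.55, and of CXCL6, at 2.41 and 3.17, are above 0.

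Senescent cells showed the opposite order. In experiment 1 both shRB arrays were above both vector arrays for all 7 members, an arrangement found for 25.8% of genes. Only 2 members, CXCL6 and PPBP, passed limma as higher, where 5.98% of genes did. CXCL6 read 11.68 and 11.89 in senescent shRB cells, 10.62 and 10.07 in shp107 cells and 8.58 and 9.08 in shp130 cells, against 9.57 and 9.17 in senescent vector cells. PPBP read 9.72 and 8.95 in senescent shRB cells, 5.73 and 3.47 in shp107 cells and 4.68 and 4.94 in shp130 cells, against 4.51 and 4.59 in vector cells. The shRB arrays were the highest of the state for both genes. CXCL6 was 2.41 ± 0.41 higher with shRB than with vector (limma adjusted p = 0.000471) and PPBP 4.79 ± 0.41 higher (adjusted p = 5.24e-08), or 27.6-fold. PPBP had entered this comparison through the shRB arrays themselves, and with no filter, where every gene with a probe set was tested, its adjusted p was 2.1e-07.

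The same 2 members were higher in senescent shRB cells than in senescent shp107 cells (11.6% of genes higher) and shp130 cells (7.87%). PPBP was higher by 4.73 ± 0.41 and 4.52 ± 0.41 (limma adjusted p = 1.06e-07 and 1.09e-07), and CXCL6 by 1.44 ± 0.41 and 2.95 ± 0.41 (adjusted p = 0.016 and 3.97e-05). As against vector, PPBP had passed the filter mainly through the shRB arrays, so these PPBP differences were built into its being tested. The CXCL6 difference from shp107 was lost without senescent shRB replicate 2 (adjusted p = 0.0919) or senescent shp107 replicate 2 (adjusted p = 0.196). No member was called with shp107 (7.84% of genes called) or shp130 (1.67%) against vector in senescent cells. The 2 shp107 arrays disagreed over PPBP, which was 1.18 above vector without shp107 replicate 2 (adjusted p = 0.0137) and -1.07 without shp107 replicate 1 (adjusted p = 0.00477), against 0.05 with both.

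The remaining members were bright in all senescent groups. CXCL2 read 12.32 and 12.25 in senescent shRB cells, against 11.09 and 10.28 in vector cells, and CXCL3 read 12.70 and 12.82, against 12.00 and 11.57. CXCL8 read 12.98 and 12.98 in senescent shRB cells, against 12.82 and 12.71 in vector cells. These shRB arrays were the higher in each case, by 1.60 ± 0.68 for CXCL2 (limma adjusted p = 0.168), 0.97 ± 0.38 for CXCL3 (adjusted p = 0.128), 0.74 ± 0.79 for CXCL1 (adjusted p = 0.671), 0.52 ± 0.29 for CXCL5 (adjusted p = 0.308) and 0.22 ± 0.66 for CXCL8 (adjusted p = 0.905). The further CXCL5 probe sets were 1.67 and 1.24 higher, neither of them called.

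In experiment 2 the shRB arrays were above the vector arrays for 6 of 7 members, all but CXCL8, an arrangement found for 30.6% of genes, and 5 passed the test, against 10.9% of genes higher. CXCL6 read 11.95 and 11.56 in senescent shRB cells, against 8.35 and 8.82 in senescent vector cells, and was 3.17 ± 0.25 higher (limma adjusted p = 0.000287). PPBP read 8.38 and 7.54 in senescent shRB cells, against 5.28 and 5.54 in vector cells, and was 2.55 ± 0.27 higher (adjusted p = 0.00072). Both calls stood with any single array left out. The other 3 calls were smaller, at 1.26 ± 0.31 for CXCL2 (adjusted p = 0.0262), 1.01 ± 0.19 for CXCL3 (adjusted p = 0.00922) and 0.84 ± 0.18 for CXCL1 (adjusted p = 0.0162).

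Those 3 calls hung on single arrays of experiment 2. The CXCL2 call was lost without any 1 of the 4 (adjusted p = 0.0826 to 0.154). That of CXCL1 was lost without senescent vector replicate 1 (adjusted p = 0.149), senescent vector replicate 2 (0.146) or senescent shRB replicate 1 (0.062). That of CXCL3 was lost without senescent vector replicate 1 (0.116) or senescent vector replicate 2 (0.0746). CXCL8 read 13.19 and 13.05 in senescent shRB cells, against 13.05 and 13.06 in vector cells, a difference of 0.07 ± 0.17 (adjusted p = 0.799) at the top of the measured range. Its second probe set was 1.01 ± 0.22 higher (adjusted p = 0.0145). CXCL5 read 12.63 and 12.57 in senescent shRB cells, against 12.18 and 11.97 in vector cells, and did not pass (0.52 ± 0.29, adjusted p = 0.23). Of its further probe sets, 1 passed (0.68 ± 0.20, limma adjusted p = 0.0409) and 1 did not (0.41 ± 0.22, adjusted p = 0.207).

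The loss of RB1 was shallower in experiment 2, at -2.28 on the log2 scale, than the -5.32 of experiment 1, and the PPBP change was smaller too. The difference of the shRB change of PPBP, experiment 2 minus experiment 1, was -2.24 ± 0.56 (limma adjusted p = 0.0497, where 0.728% of genes were lower), just past the threshold. It was lost without filtering low values (adjusted p = 0.0711), with a filter at log2 6 (0.0525), and without any 1 of 6 arrays (0.113 to 0.244), senescent vector replicates 1 and 2 and senescent shRB replicate 1 of experiment 1, and senescent vector replicates 1 and 2 and senescent shRB replicate 2 of experiment 2. The part of the RB1 level in this difference was not tested. Senescent shRB cells of experiment 2 were above growing vector cells for all 7 members (15% of genes higher), by 4.45 for CXCL8 to 8.75 for CXCL3, in a comparison that shares arrays with both of the others.

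Within each hairpin, the states were compared with growing cells of the same construct. The filter favoured rises from growing cells here too, for members other than CXCL1 and CXCL8. Senescent cells were higher for 7 of 7 members with shRB (12.4% of genes higher), 7 of 7 with shp107 (17.2%) and 6 of 7 with shp130 (12.6%). The exception, CXCL8 with shp130, was already at 11.42 and 11.54 in growing cells, against which senescent cells read 12.76 and 12.77. The rises in shRB cells ran from 6.64 for CXCL8 to 9.48 for CXCL3, a 716-fold change. CXCL8 rose by 3.75 with shp107 and by 2.29 without growing shp107 replicate 1, and PPBP rose by 1.94 with shp107, which was 0.81 without senescent shp107 replicate 1 and 3.06 without replicate 2.

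At confluence 5 of 7 members were higher than in growing cells with shp130 (8.19% of genes higher), 5 of 7 with shRB (3.04%) and 1 of 7 with shp107 (3.52%). The sizes differed. With shp130 CXCL2, CXCL3, CXCL5 and CXCL6 rose by 7.21 to 8.29 and CXCL1 by 3.98. With shRB CXCL3 rose by 1.64, CXCL6 by 1.51 and CXCL5 by 1.01, while CXCL1 rose by 5.81 and CXCL8 by 4.19, both from low growing values. The 3 smaller shRB calls were lost without confluent shRB replicate 1 (adjusted p = 0.112 for CXCL3, 0.15 for CXCL6 and 0.218 for CXCL5). They were also lost without growing shRB replicate 1 (0.0784 for CXCL3 and 0.0587 for CXCL6) or growing shRB replicate 2 (0.245 for CXCL5 and 0.154 for CXCL6), and that of CXCL6 without confluent shRB replicate 2 (0.0595). With shp107 CXCL1 rose by 3.77, a call lost without confluent shp107 replicate 1 (adjusted p = 0.0521) or growing shp107 replicate 1 (0.0689). CXCL8 rose by 0.99 with shp107 and was not called, but was without growing shp107 replicate 2 (2.44, adjusted p = 0.0422).

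In low serum 1 of 7 members was lower than in growing cells with shp107 (3.44% of genes lower), 3 of 7 with shp130 (5.09%) and none with shRB (6.43% of genes called either way). CXCL8 fell by 3.81 ± 0.66 with shp107 (by 2.36 without growing shp107 replicate 2) and by 4.83 ± 0.66 with shp130, and CXCL1 fell by 4.46 ± 0.79 with shp130. CXCL6 fell by 1.50 with shp130, a call lost without growing shp130 replicate 2 (-1.11, adjusted p = 0.269), low-serum shp130 replicate 1 (-1.57, adjusted p = 0.0917) or low-serum shp130 replicate 2 (-1.42, adjusted p = 0.126).

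Whether a hairpin's effect differed between states was tested directly, as the change at confluence or senescence minus the change in growing cells. At confluence the shRB effect was more negative for 4 of 7 members, CXCL2, CXCL3, CXCL5 and CXCL6 (1.45% of genes), with differences of -4.73 ± 0.97 to -6.84 ± 0.40. The shp107 effect was more negative for the same 4 (1.57%), with differences of -5.61 ± 0.58 to -7.29 ± 0.40. In senescent cells the shRB effect was more positive for 3 of 7, CXCL6, CXCL8 and PPBP (1.34%). For PPBP this was built in by the filter, which it passed mainly through the senescent shRB arrays. The CXCL8 difference of 4.09 ± 0.93 was lost without any 1 of its arrays (adjusted p = 0.0539 to 0.182) other than growing vector replicate 2. The CXCL2 difference with shRB at confluence did not pass when growing vector replicate 2 was left out (-4.47, adjusted p = 0.0585), and without confluent vector replicate 1 it was -2.77 with shRB and -3.75 with shp107. None of the 7 members differed for shp107 in senescent cells (1.17% of genes called), for shp130 at confluence (0.0117%) or in senescent cells (0.164%), or for any hairpin in low serum (0% to 0.0117%).

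Across the 16 group means of experiment 1, CXCL2, CXCL3, CXCL5 and CXCL6 followed nearly 1 profile, with pairwise r from 0.969 to 0.996. CXCL1 correlated with these 4 at 0.908 to 0.932 and with CXCL8 at 0.955, and CXCL8 with the 4 at 0.825 to 0.857. PPBP correlated with the other members at 0.511 to 0.641. These values share arrays and a 2-level pattern of high and low groups, and are descriptions. By mean level over the 19 groups, CXCL2, CXCL3 and CXCL5 were highest in senescent shRB cells of experiment 1, at 12.28, 12.76 and 12.67, CXCL6 in confluent shp130 cells at 12.12, and PPBP in senescent shRB cells at 9.33. CXCL1 and CXCL8 were highest in senescent shRB cells of experiment 2, at 12.81 and 13.12. The arrays of neighbours in this order overlapped for 10 of 18 pairs in CXCL8 to 15 of 18 in CXCL2, so the order within the high and within the low groups is loose. For every member but PPBP the same 8 groups were the highest, the 6 senescent groups and confluent vector and shp130 cells, and the arrays at the step to the next group did not overlap. The step between these group means was 7.29 for CXCL5, 6.55 for CXCL3, 5.62 for CXCL2, 3.40 for CXCL6, 2.51 for CXCL1 and 1.18 for CXCL8.

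The genes whose 16 group means were most like the mean profile of the members were IER3, an immediate early survival gene (r = 0.984), TMEM132A (0.981), the cytokine IL1B (0.976), the BCL2 relative BCL2A1 (0.976) and the chemokine CCL20 (0.969). They were followed by VWA5A, the stress cytokine GDF15, the NAD synthesis enzyme NAMPT, SUSD6 and the tryptophan pathway enzyme KYNU, with r down to 0.967. By single members, BCL2A1 was closest to CXCL5 (r = 0.994), NFKBIZ, a nuclear NF-kB cofactor, to CXCL8 (0.963), and ZG16B to PPBP (0.981). The PPBP value rests on 1 group, senescent shRB cells, where ZG16B averaged 6.65 and PPBP 9.33. Their next highest means in experiment 1, in senescent shp130 cells, were 4.79 and 4.81, under the filter's 5.

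Receptors and surface partners of the chemokines were few on these arrays. CXCR2 lay between 3.22 and 4.43, CXCR1 between 2.60 and 3.10 and the scavenger ACKR1 between 2.68 and 3.21, all under the filter, so no receptor comparison was made. Of the 4 heparan sulphate carriers tested, 3 were lower in senescent vector cells of each experiment, where 16.2% of all genes tested were lower in experiment 1 and 20.6% in experiment 2, and 2 at confluence (14.5% of genes). SDC2 fell by 2.82, GPC1 by 2.42 and SDC4 by 1.41 in experiment 1 (limma adjusted p of 0.000225, 1.07e-05 and 0.000175). With shRB at confluence GPC1 was 2.48 and SDC4 1.84 higher than with vector, where 7% of genes were higher.

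Among 21 genes of the NF-kB pathway and its inducers 17 were tested. IL1A, with a median of 3.51 over all arrays, passed the filter through the arrays where it was high. Its changes and the list counts are therefore not independent of the filter. At confluence 10 were higher (10.5% of genes) and 0 lower in vector cells, with IL1A up 4.35, IL1B up 4.34 and the feedback inhibitor TNFAIP3 up 3.67. With shRB at confluence 11 were lower (10.5% of genes) and 0 higher, IL1B by -5.18, IL6 by -4.28 and IL1A by -4.18. With shp107 there 10 were lower (6.17% of genes). In senescent vector cells of experiment 1, 5 were higher (9.21% of genes) and 1 lower (16.2%), with IL1A 7.14, IL1B 6.33 and CEBPD -1.41. In experiment 2, 11 were higher (18.7%) and 0 lower (20.6%). With shRB in senescent cells none was called in experiment 1 (5.98% of genes higher, 3.77% lower). In experiment 2, 3 were higher (10.9% of genes) and 2 lower (9.24%), the 2 near their share. In low serum 6 were lower (6.36% of genes), IL6 by -4.49. The list median was 1.14 at confluence and -1.02 with shRB at confluence, against -0.05 and -0.07 for all genes.

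Of 23 other chemokines 21 had a probe set and 7 were tested. PF4V1, CCL20, CCL7 and CXCL10 had medians of 2.95, 3.72, 3.91 and 4.87 over all arrays, under the filter's 5. They passed it through the arrays where they were high, so their changes and the list counts are not independent of it. CCL20, which binds CCR6, rose by 5.11 at confluence, by 6.43 in senescent cells of experiment 1 and by 8.44 in those of experiment 2, and with shRB at confluence it fell by 5.43. CCL2, the monocyte attractant, fell by 1.98 in senescent cells of experiment 1, and CXCL12, the ligand of CXCR4, fell by 2.30. With shRB in senescent cells CXCL10, an interferon-induced ligand of CXCR3, was 4.85 higher in experiment 1 (limma adjusted p = 0.00834) and 2.64 higher in experiment 2. It was the single call of that list in experiment 1, where 5.98% of genes were higher. In experiment 2, 5 of the 7 were higher with shRB (10.9% of genes), among them PF4V1 by 2.54, CCL2 by 1.97 and CCL7 by 1.77.

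Of 12 genes of AP-1 and the ERK response 11 were tested. FOS and DUSP4, with medians of 3.89 and 4.77 over all arrays, passed the filter through the arrays where they were high. Their changes and the list counts are therefore not independent of the filter. In senescent vector cells 7 were higher (9.21% of genes) and 0 lower in experiment 1, led by the ERK phosphatase DUSP4 (3.86) and the feedback inhibitor SPRY2 (2.92), and at confluence 5 were higher (10.5% of genes) and 1 lower (14.5%), ATF3 by 2.84, FOS by 2.79 and FOSL1 by -2.33. With shRB at confluence 4 were lower (10.5% of genes), FOS by -3.21 and ATF3 by -2.10. With shRB in senescent cells DUSP4 was lower in both experiments, by -1.33 (3.77% of genes lower) and -1.83 (9.24%). The last list held 5 tested genes whose proteins bind AU-rich messengers such as those of these chemokines. ZFP36L2 alone changed in senescent vector cells, by -2.00 in experiment 1 (16.2% of genes lower) and -2.16 in experiment 2 (20.6%). None of the 5 was called at confluence.

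The chromosome neighbours did not move as a block. Of the 2 platelet factor genes among the members, PF4 did not pass the filter, with a highest value of 4.37. PF4V1 was 3.55 ± 0.70 higher at confluence (limma adjusted p = 0.000887) and fell by 3.79 with shRB there, and in experiment 2 it was 2.54 ± 0.23 higher with shRB in senescent cells (adjusted p = 0.000402). EREG, an EGF-family ligand beyond CXCL2, rose by 6.57 ± 0.24 in senescent vector cells and by 6.01 ± 0.24 at confluence, and fell by 7.02 with shRB at confluence. MTHFD2L, the nearest gene beyond CXCL2, rose by 1.63 ± 0.57 in senescent cells (adjusted p = 0.0388). On the other side of the cluster COX18 fell by 1.05 in senescent cells and SLC4A4 by 1.22. In all, 8 of 22 neighbours were tested, and at confluence 4 were higher, against 10.5% of genes, and 4 not called. PF4V1, with a median of 2.95 and a highest value of 8.38 over all arrays, passed the filter through the arrays where it was high. Its changes and this count are therefore not independent of the filter.

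**Figure D5:**
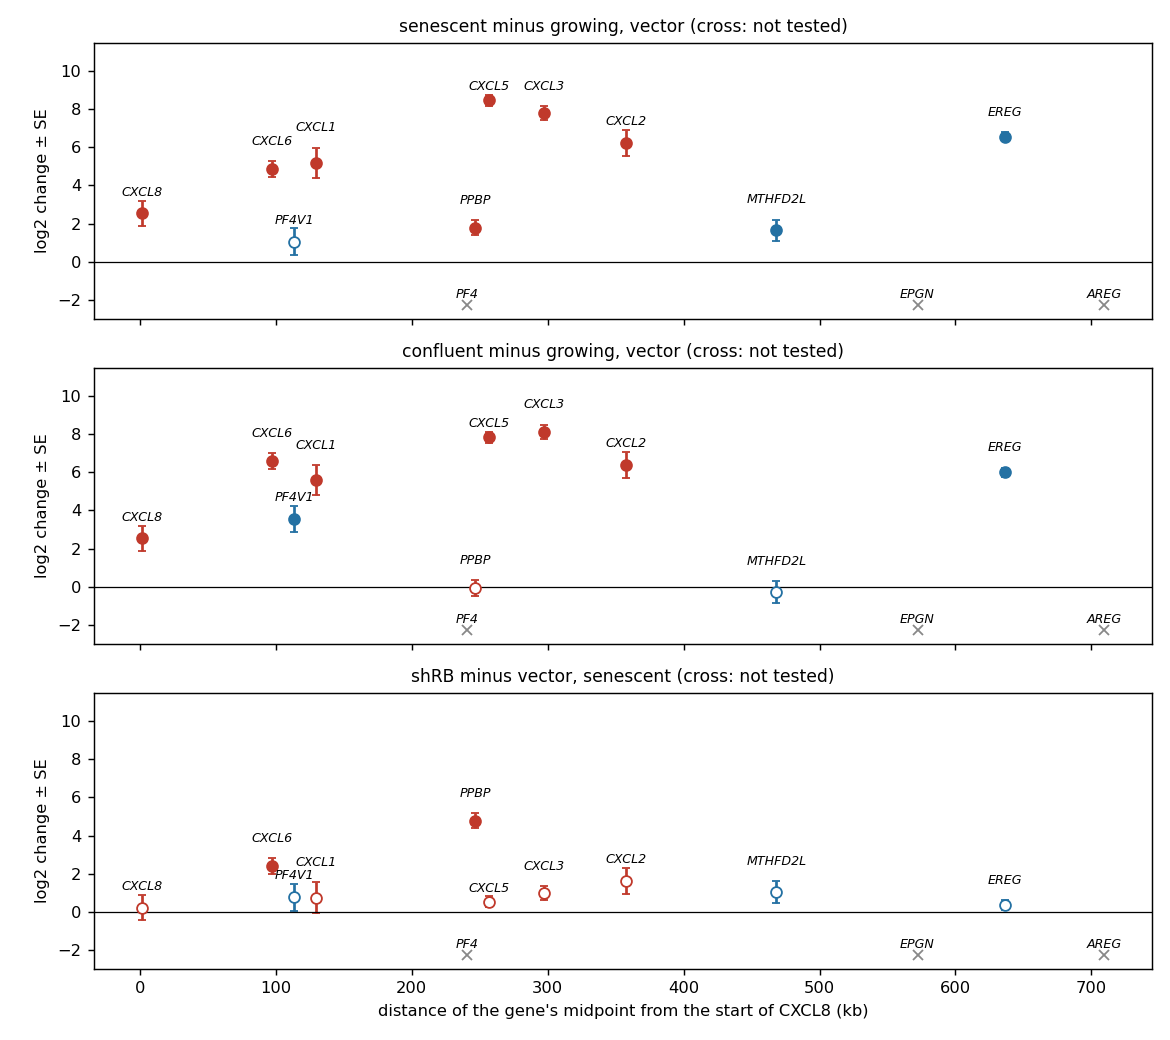
Points give the log2 change ± SE of the members (red) and of tested neighbours (blue), filled where the adjusted p is under 0.05, at the distance of each gene's midpoint from the start of CXCL8 in kb. Crosses at the foot mark genes that were not tested. CXCL5 and CXCL3 are the highest points in senescent and confluent vector cells, at 7.80 to 8.48, and EREG, beyond the members, stands at 6.57 and 6.01.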

How the data were processed

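RNA from IMR90 cells was labelled as biotinylated cRNA and hybridised to Affymetrix arrays, per the labels' protocols. The authors deposited 1 log2 value per probe set and array, and the submitters' processing notes name GCRMA, a background and quantile correction for such arrays. The labels do not state whether both experiments were normalised together. Of 54613 probe sets, 41091 named 1 gene and 1801 several, and the other 11721 had no gene name in the annotation used. The brightest probe set naming 1 gene stood for each of 19775 genes, and 8511 genes with log2 above 5 on at least 2 arrays of experiment 1 were tested. A fit with limma 3.58.1 in R 4.3.3 gave each group its own mean, separately for experiment 1 (32 arrays, 16 residual degrees of freedom) and experiment 2 (6 arrays, 3 residual degrees of freedom), and over all 38 arrays for differences between experiments. The p-values were adjusted by Benjamini-Hochberg over all tested genes within each comparison and called under 0.05, and no p was adjusted over the members alone. The number of arrays, 2 a group, limits the precision. The procedure was tested on simulated data. Every member was named, and beside them at most 4 called genes with the largest change from each list, plus the genes closest in profile. The members and lists were chosen with earlier results of these data known. Alternatives covered the filter, probe set choice, normalisation, variance model, arrays in the fit, replicate block and each array left out. The comparisons did not pair arrays by replicate letter. Same-letter deviations correlated at -0.376 to 0.49 (median 0.0412) over 120 pairs of groups in experiment 1, of the same or different constructs. Of these 38 were above 0.1, and over 3 pairs in experiment 2 they ran from -0.136 to 0.625. Pairing within a construct was not tested. In growing, low-serum, confluent and senescent vector cells replicate 1 was the higher for 6, 5, 7 and 6 of the 7 members. The counts were 6, 6, 6 and 4 with shRB, 2, 4, 6 and 6 with shp107, and 0, 2, 2 and 0 with shp130. Sequences came from RefSeq promoter windows on GRCh38.p14, aligned with Biopython 1.88.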

Additional observations from a re-analysis of the deposited data

Results flagged for a closer look

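A hairpin's effect differed between states for 11 pairs of member and comparison by a direct limma test of the difference. Between confluent and growing cells the shRB effect differed by -4.73 for CXCL2, -6.49 for CXCL3, -6.84 for CXCL5 and -5.08 for CXCL6 (log2, adjusted p = 0.00853, 1.2e-07, 5.07e-10 and 1.15e-05). The shp107 effect differed by -5.72, -6.99, -7.29 and -5.61 for the same genes (adjusted p = 0.00114, 3.07e-08, 9.69e-11 and 2.66e-06). Between senescent and growing cells the shRB effect differed by 3.25 for CXCL6, 4.09 for CXCL8 and 4.89 for PPBP (adjusted p = 0.00317, 0.0214 and 2.43e-05). All of these share the growing vector arrays, whose replicates differed by 2.59 for CXCL8. The PPBP difference from growing cells was built in by the filter, which PPBP passed mainly through the senescent shRB arrays. The shRB effect on PPBP in senescent cells differed by -2.24 between experiments, experiment 2 minus experiment 1 (adjusted p = 0.0497). With only the arrays compared in the fit, 5 of these 12 differences no longer passed: CXCL2 with shRB (adjusted p = 0.279) and with shp107 (0.206) and CXCL6 with shRB (0.0546) at confluence, CXCL8 with shRB in senescent cells (0.0868), and PPBP between experiments (0.0659).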

How the results depend on the processing

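Over the 47 results called for vector states, shRB against vector, effect differences and experiments, none turned its direction: of 422 alternative values 400 kept the call and 22 lost it, and of 236 with 1 array left out 200 kept it and 36 lost it. Among results not called, 10 gained a call with 1 array left out, and 1 of these, PPBP with shp107 against vector in senescent cells, also turned its sign (-1.07 without shp107 replicate 1, against 0.05). With only the arrays compared in the fit, which leaves fewer residual degrees of freedom, calls fell to 0 of 1 in low serum, 3 of 6 at confluence, 0 of 1 for shRB in growing cells and 3 of 6 for shRB at confluence, and senescent CXCL8 was lost (adjusted p = 0.058), as were 5 differences of effects listed above. CXCL8 with shRB at confluence was lost with no filter (0.0508), and its difference between senescent and growing cells with the mean of all probe sets (0.104). With the mean of all probe sets shRB in growing cells had 0 calls, and with all 38 arrays in 1 fit it had 2 and shRB in senescent cells of experiment 2 had 2 of 5. The PPBP difference between experiments gave 0 calls with no filter and 0 with the filter at 6. Leaving out 1 array, calls ranged from 0 to 2 in low serum, 5 to 6 at confluence, 6 to 7 in senescence, 0 to 2 for shRB in growing cells, 4 to 6 for shRB at confluence, 2 to 4 for shRB in senescent cells of experiment 2, and 0 to 2 between experiments. With the replicate block, 1 term for the letter over all constructs and states, 103 of 287 tests were called, against 101 without it. The block moved 2 calls, CXCL3 at confluence in shp107 cells (adjusted p = 0.0468 against 0.0687) and CXCL3 with shRB against shp107 in senescent cells (0.0494 against 0.0694). Changes against groups under log2 5 are limited by array background, and those of CXCL8 among groups near 13 by the top of the range.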
